A study of Homo sapiens with 2 samples.

Results

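Cells with high levels of mitotic mRNAs were examined in MDAMB468, a human triple negative breast cancer line that carries high EGFR. A cell here is a cell barcode, the bead sequence that tags the RNA of a droplet. A barcode of the MDAMB468 library was used if it held at least 5000 unique molecular identifiers (UMIs, each standing for 1 captured mRNA molecule) and was not 1 base away from another MDAMB468 barcode with at least 5 times its UMIs. This left 208 of the 306 MDAMB468 barcodes. Members were chosen by a measured value, so the barcodes were ranked by a score, the summed UMIs of PLK1, CENPE, AURKA, CCNB1, CDC20, CENPF, HMMR and TPX2 over the total UMIs of the barcode, and the highest 30% were taken. The 62 selected barcodes, called mitotic cells below, are 62 of 1683 barcodes in the whole series and are compared with the other 146 MDAMB468 barcodes. The series holds 1 library of MDAMB468 and 1 library of CAL51, a second triple negative breast cancer line, both grown without any treatment named in the labels and both captured as single cells by Drop-seq from the 3′ end of polyadenylated RNA. Each line is therefore 1 sample, no test between cells was possible, and every difference is a description of these libraries.

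A cell enters mitosis when CDK1, bound to cyclin A or cyclin B, is switched on by CDC25 phosphatases, and leaves it when the anaphase promoting complex tags cyclin B and securin for destruction. In between, chromosomes are condensed, the kinetochores that sit on their centromeres are caught by spindle microtubules, the spindle assembly checkpoint holds anaphase until all are attached, and cytokinesis then divides the cell. The mRNAs of most of these proteins build up together from late S phase through G2 and are lost after division, so an RNA score marks G2 and M cells jointly and does not separate those in mitosis from those about to enter it. Many of their promoters hold a cell cycle genes homology region (CHR), read by complexes built on the MuvB core, and CCAAT boxes, read by NF-Y, whereas genes needed for DNA replication often hold E2F sites and peak earlier, at the G1/S boundary.

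The mitotic cells held 1804920 UMIs in all, with 5965 as the lowest total, 20536 as the median and 134213 as the highest. The other cells held 3356204 UMIs, with 5011, 17261 and 131840. Both groups thus covered nearly the same range of depth. The score, which chose the groups, was 2132 to 6181 CPM (UMIs scaled to a common total per cell or group) with a median of 3378 in the mitotic cells and 0 to 2118 with a median of 733 in the others. The 3 cells just inside the boundary had scores of 2132, 2221 and 2267 CPM and the 3 just outside had 2118, 2083 and 2021 CPM, so no gap separated them. The score rested on 19 to 459 UMIs per mitotic cell, with a median of 69, and all 8 score genes had a UMI in 39 of the 62. Of the 208 barcode sequences, 31 also occurred in the CAL51 library, 13 of them in mitotic cells and 18 in the others. These 13 held 940696 of the 1804920 UMIs of the mitotic cells, and the 18 held 1240536 of the 3356204 of the others. They therefore weigh heavily in values from summed UMIs. The main results are given with and without the shared barcodes, but most single-gene values only with them. The doublet caller marked 2 mitotic cells and 6 others, and none was removed. Intervals are 95% intervals, exact, and cover counting error only.

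The label was checked on genes outside the score. All 13 genes set as checks of a mitotic identity (BUB1, AURKB, BIRC5, UBE2C, CCNB2, CCNA2, CDK1, KIF20A, KIF23, DLGAP5, ASPM, TOP2A and MKI67) were at least 1.5-fold higher in the mitotic cells, with log2 differences between 0.83 for AURKB and 2.32 for KIF20A. These differences are of CPM + 1 in UMIs summed over each group, which pulls genes of low level towards 0. Across 101 G2 and M genes, none of them in the score, the mitotic cells held 16638 CPM and the other cells 8724 CPM, a ratio of 1.91 (interval 1.88 to 1.94). Leaving out the barcodes also present in CAL51 and taking the top 30% of the rest anew, which gave 53 mitotic cells, 49 of them among the 62, the ratio was 2.10. Per cell, the summed level was 6427 CPM in the lowest mitotic cell, 16959 in the median one and 25770 in the highest, against 2093, 8674 and 15882 CPM in the others. None of the 146 other cells reached the mitotic median, although 87 lay above the lowest mitotic cell, and 3 mitotic cells lay below the median of the others. Because the score and these genes are read from the same RNA of the same cells, this is a description of the cells chosen and not separate support for the choice.

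**Figure D1:**
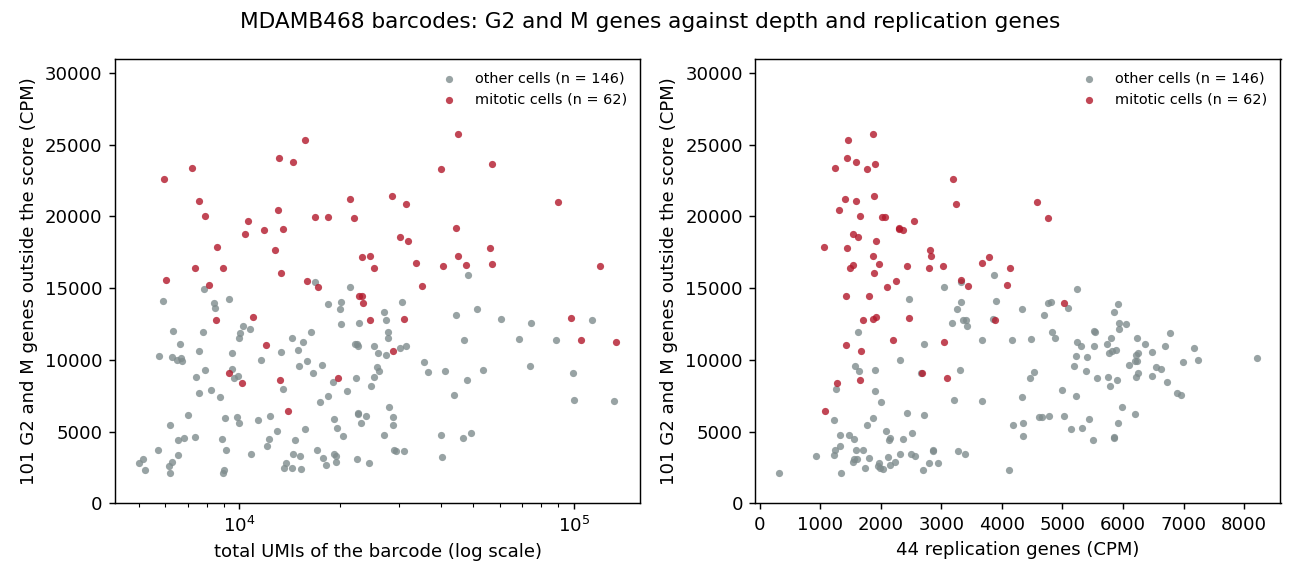
Each point is 1 MDAMB468 barcode, red for the 62 mitotic cells and grey for the 146 others; the vertical axis is the summed CPM of 101 G2 and M genes outside the score, against total UMIs on a log scale (left) and the summed CPM of 44 replication genes (right). Most mitotic cells lie above most others across the range of depth, and most of them lie at the left of the right panel, with a median of 1939 CPM of replication genes against 4332 in the others.

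Of 6310 genes with at least 100 UMIs over both groups, 278 (4.41%) were at least 1.5-fold higher in the mitotic cells and 162 (2.57%) at least 1.5-fold lower, and the median difference of all 6310 was 0.02 on the log2 scale. The G2 and M lists supplied 62 of the 278: 62 of their 91 genes past that minimum were higher and 1 was lower, with a median log2 difference of 0.94 over all 101. Of the 78 genes at least 2-fold higher, 45 were in those lists. The contrast is the one the rule was built on, so these shares are given beside each other and nothing is read from them. With TMM scaling factors the split was 206 higher and 219 lower genes, and the median of all genes moved to -0.06. The selection made anew without barcodes shared with CAL51 gave 193 higher and 164 lower among 4440 genes, and 54 G2 and M genes higher. Without 1 other cell that held nearly all interferon mRNA there were 269 higher and 143 lower genes.

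Promoters of the G2 and M list genes that were higher and the replication list genes that were lower are shown first. These 2 opposed groups also differed in the letters around their start sites. Genes past 1.5-fold outside these lists were not searched as a group. Windows from 250 bases before to 50 bases after each RefSeq start on GRCh38.p14 were searched on both strands for TTTGAA, the letters of the CHR, for CCAAT, and for 3 common spellings of an E2F site: TTTGGCG, its common variant TTTCGCG, and the further variant TTTCCCG. The 62 higher G2 and M genes had 66 windows for the 56 that matched a promoter entry. CHR letters stood in 42 of these 66 windows (63.6%), in 18 of 50 windows (36.0%) of the remaining G2 and M list genes, which were either not past 1.5-fold or had under 100 UMIs, in 15.2% of all 35116 windows and in 11.01% of the windows of all genes tested. In the last 100 bases before the start they stood in 34.8% of the higher genes' windows and 4.61% of all windows. Among the 20 replication genes at least 1.5-fold lower, 16 matched with 22 windows, of which 1 (4.55%) held CHR letters. E2F-type letters were most frequent in the replication group, in 12 of those 22 windows (54.5%). The whole replication list of 44 genes held them in 26 of 46 windows (56.5%) and CHR letters in 2 (4.35%). In neither motif did its lower genes stand out from the list. E2F-type letters stood in 16.7% of the windows of higher G2 and M genes and 15 of the 50 (30%) of the remaining G2 and M list genes. Their share was 12.2% of the windows of all genes tested and 7.21% of all windows. CCAAT letters did not part the groups, at 69.7% of the higher G2 and M windows and 63.6% of the lower replication windows, against 34.6% of all. A match is a run of letters, not a bound site.

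**Figure D2:**
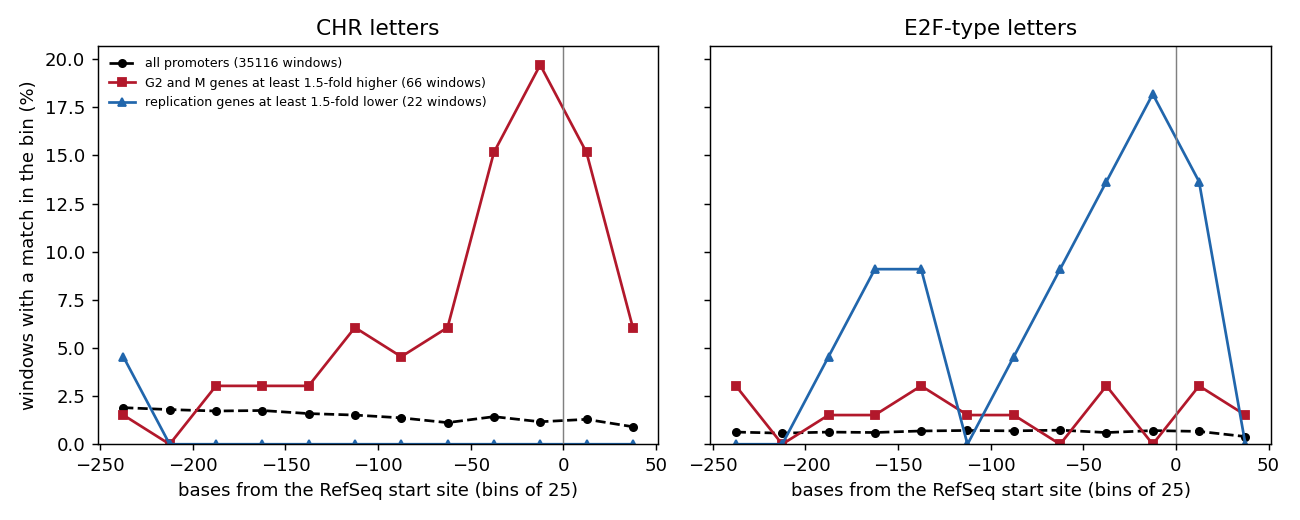
Share of promoter windows with CHR letters (left) or E2F-type letters (right) in bins of 25 bases around the RefSeq start, for all promoters (black), higher G2 and M genes (red) and lower replication genes (blue). CHR letters of the red group are most frequent around the start, with 15.2%, 19.7% and 15.2% of windows in the bins from -50 to 25, and the E2F-type letters of the blue group have 13.6%, 18.2% and 13.6% in the same bins, or 3, 4 and 3 of 22 windows.

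The 8 stretches below are the 80 bases before the start of the G2 and M genes with the largest differences whose CHR letters lay whole within them, each 5′ to 3′ on the strand of the gene, with CHR and CCAAT letters of either strand in capitals (TTCAAA and ATTGG are the reverse strand). Promoters on some chromosomes were left out of this choice and the one that follows, so genes with larger differences may be missing. In CDCA8 the capitals hold a CHR match that overlaps a reversed CCAAT. The genes are CENPA, the centromeric histone H3 (chr2:26785976-26786055, + strand), KIF18A, a kinesin that damps chromosome movement on the spindle (chr11:28108157-28108236, - strand), CKAP2L, a spindle protein (chr2:112764610-112764689, - strand), GTSE1, a microtubule-binding protein of G2 and S phase (chr22:46296790-46296869, + strand), KIF4A, a chromosome-bound kinesin (chrX:70290024-70290103, + strand), CDCA8, or borealin, of the chromosomal passenger complex (chr1:37692436-37692515, + strand), CKS2, a small subunit of CDK1 complexes (chr9:89311115-89311194, + strand), and KIF15, a spindle kinesin (chr3:44761714-44761793, + strand).
CENPA: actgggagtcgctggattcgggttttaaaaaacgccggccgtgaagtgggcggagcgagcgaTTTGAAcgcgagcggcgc
KIF18A: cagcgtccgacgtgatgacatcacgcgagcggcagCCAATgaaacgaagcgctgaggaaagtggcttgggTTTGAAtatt
CKAP2L: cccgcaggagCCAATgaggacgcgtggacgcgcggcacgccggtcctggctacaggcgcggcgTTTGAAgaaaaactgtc
GTSE1: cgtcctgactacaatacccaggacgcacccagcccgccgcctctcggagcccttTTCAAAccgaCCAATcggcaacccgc
KIF4A: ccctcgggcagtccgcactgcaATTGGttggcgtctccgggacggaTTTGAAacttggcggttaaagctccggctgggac
CDCA8: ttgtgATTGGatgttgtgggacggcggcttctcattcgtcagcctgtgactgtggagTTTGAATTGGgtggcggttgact
CKS2: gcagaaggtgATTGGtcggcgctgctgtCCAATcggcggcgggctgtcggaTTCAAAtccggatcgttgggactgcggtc
KIF15: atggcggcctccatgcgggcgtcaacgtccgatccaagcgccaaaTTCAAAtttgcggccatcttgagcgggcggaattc

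The 4 stretches that follow are the same 80 bases of lower replication genes whose E2F-type letters, in capitals, lay whole within them, shown for contrast. UNG removes uracil from DNA (chr12:109098092-109098171, + strand), DTL targets CDT1 for destruction in S phase (chr1:212035668-212035747, + strand), and CDT1 (chr16:88803709-88803788, + strand) and CDC6 (chr17:40287799-40287878, + strand) load the replicative helicase onto origins. CDT1 holds 2 E2F-type spellings that adjoin on opposite strands.
UNG: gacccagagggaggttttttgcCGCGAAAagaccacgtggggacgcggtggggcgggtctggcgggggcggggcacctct
DTL: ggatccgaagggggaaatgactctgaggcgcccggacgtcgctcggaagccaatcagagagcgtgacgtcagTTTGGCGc
CDT1: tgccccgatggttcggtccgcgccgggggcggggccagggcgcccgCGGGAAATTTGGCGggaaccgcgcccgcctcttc
CDC6: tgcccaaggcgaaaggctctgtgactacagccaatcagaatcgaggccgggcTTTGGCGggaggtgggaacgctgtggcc

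Among CDK1, its cyclins, activators and inhibitors, 11 of the 14 genes with enough UMIs were at least 1.5-fold higher and 0 were lower, with a median log2 difference of 1.03 over the 16 listed. CDK1 itself had 0 CPM in the lowest mitotic cell, 473 in the median and 1141 in the highest, against 0, 134 and 711 CPM in the others. The groups overlapped, with a CDK1 UMI in 55 of the 62 mitotic cells and in 103 of the 146 others. From the summed UMIs CDK1 was 2.07-fold higher (interval 1.87 to 2.30). Cyclin B2 (CCNB2, 2.26-fold) and cyclin A2 (CCNA2, 2.05-fold), the partners of CDK1, were higher by nearly the same factor, and CKS2, shown above, was 2.58-fold higher with 99, 774 and 1465 CPM against 0, 209 and 1216. CKS2 had a UMI in all 62 mitotic cells. The phosphatase CDC25C, which switches CDK1 on, had 39 UMIs in the mitotic cells and 7 in the others, 21.6 against 2.09 CPM and 10.4-fold (interval 4.58 to 27.4), on too few UMIs to count among the genes tested. Its relative CDC25B was 0.72 higher on the log2 scale, and CDC25A, on only 5 and 19 UMIs, differed by -0.82. The kinases that hold CDK1 inactive were not higher: WEE1 differed by 0.07 and PKMYT1 by -0.36. Cyclin F (CCNF), a ubiquitin ligase subunit, and NEK2, a centrosome kinase, had the largest differences among genes of this list with enough UMIs, 2.10 and 1.87.

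The spindle assembly checkpoint had 3 of 5 genes higher and 0 lower, with a list median of 0.61 over its 6 genes. BUB1, the kinase that recruits checkpoint proteins to kinetochores, had 0, 265 and 952 CPM in the lowest, median and highest mitotic cell against 0, 41.5 and 355 CPM in the others, and was 3.18-fold higher (interval 2.75 to 3.68). The highest other cell thus stood above the median mitotic cell, but most of the others lay far below it. TTK, the kinase upstream of BUB1, was 1.31 higher on the log2 scale, and BUBR1 (BUB1B) 0.83. MAD2L1 and BUB3 differed by only 0.39 and 0.40.

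Kinetochore and centromere genes were less uniform, with 6 of 16 higher, 1 lower and a median of 0.45. The genes of the NDC80 complex, the microtubule-binding outer kinetochore, did not share a value: NUF2 was 1.52 and NDC80 1.43 higher, while SPC24 was 0.77 and SPC25 0.52 higher. CENPA had 97 UMIs in the mitotic cells and 42 in the others, 53.7 against 12.51 CPM, and its log2 difference of 2.02 was the largest of the list. DSN1, a subunit of the MIS12 complex that links the inner to the outer kinetochore, was the 1 lower gene, with 15.5 against 33.1 CPM, 2.13-fold lower (interval 1.40 to 3.35). CENPU was also on the lower side, at -0.36, and ZWINT differed by 0.03. The kinetochore list thus held 1 gene of 16 at least 1.5-fold lower, against 2.57% of all genes tested. The other G2 and M lists held none among genes with 100 UMIs or more, a contrast that rests on this 1 gene.

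All 4 genes of the chromosomal passenger complex, which corrects faulty attachments and then directs the cut, were higher, by 0.83 (AURKB), 0.97 (INCENP), 1.09 (BIRC5) and 1.42 (CDCA8). Survivin (BIRC5) was the most evenly detected of them: it had 112, 383 and 867 CPM across mitotic cells, none of them empty, and 0, 150 and 715 CPM in the others. The groups overlapped, and the summed UMIs differed 2.13-fold (interval 1.91 to 2.38). Condensin, cohesin control and other mitotic chromosome genes had 10 of 13 higher and a median of 0.88 over 14. Topoisomerase II alpha (TOP2A), which untangles sister DNA, had 0, 733 and 1846 CPM against 0, 166 and 1101 and was 2.81-fold higher (interval 2.59 to 3.06). Securin (PTTG1), the inhibitor of separase, had 166, 816 and 2491 CPM against 0, 196 and 1260 CPM, a 2.42-fold difference (interval 2.24 to 2.61). Shugoshin 2 (SGO2), a protector of centromeric cohesin, had the largest difference of this list, 1.67. The proliferation marker MKI67 differed by less, 0.91. NCAPD3 (-0.29) and sororin (CDCA5, -0.15) were slightly lower.

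Mitotic kinesins, the motors that build and run the spindle, showed the largest list median, 1.32 over 12 genes, with 10 of 11 genes higher and a summed ratio of 2.71 (interval 2.57 to 2.87). KIF20A, needed for cytokinesis, had 109 UMIs in the mitotic cells and 38 in the others, 60.4 against 11.3 CPM and 5.33-fold (interval 3.66 to 7.93). After every cell was thinned to 5000 UMIs, 15 of 62 mitotic cells and 1 of 146 others kept a KIF20A UMI, and before thinning 41 and 23 did, at median depths of 20536 and 17261. At equal depth the share was thus 24.2% in the mitotic cells and 0.685% in the others. KIF14 differed by 2.02, KIF18A by 1.95 and KIF2C, which takes microtubules apart at centromeres, by 1.69. The spindle microtubule binding proteins had 11 of 12 genes higher and a median of 1.26. DLGAP5, a protein of kinetochore fibres, had 0, 272 and 1006 CPM in the lowest, median and highest mitotic cell and 0, 0 and 339 CPM in the others, 4.79-fold (interval 4.09 to 5.63). At 5000 UMIs it was seen in 45 mitotic cells (72.6%) and 31 others (21.2%). ASPM, which focuses spindle poles, was 1.78 higher. STMN1, a tubulin-binding protein present in nearly all cells of both groups, was the exception at 0.27.

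Within the anaphase promoting complex list, the E2 enzymes and a partner stood apart from the subunits. UBE2C, the E2 that starts ubiquitin chains, had 0, 272 and 898 CPM against 0, 51.7 and 514 CPM and was 2.76-fold higher (interval 2.42 to 3.14). UBE2S, which extends the chains, was 1.29 higher and CDCA3, a cell division adaptor, 1.90. The 5 core subunits with enough UMIs, ANAPC5, ANAPC11, CDC16, CDC26 and CDC27, differed by -0.07 to 0.35, and the inhibitor FBXO5 by -0.27. A further core subunit, CDC23, had too few UMIs to count among the genes tested, 23 and 71. It differed by -0.69, 1.66-fold lower (interval 1.02 to 2.78). All 4 cytokinesis genes tested were higher, ANLN by 1.07, CEP55 by 1.21, ECT2 by 1.32 and RACGAP1 by 0.99. None of the 3 transcription factors of these genes with enough UMIs was past 1.5-fold. FOXM1 had 24.4 CPM in the mitotic cells and 25.03 in the others, a log2 difference of -0.04, and MYBL2 and LIN9 differed by 0.14 and 0.07. For FOXM1 the interval of the ratio, 0.66 to 1.42, includes both no difference and a modest one, since only 44 and 84 UMIs were counted. The other two of the list had fewer UMIs: LIN52, with 14 and 15, differed by 0.68, and LIN54, with 18 and 41, by -0.27.

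**Figure D3:**
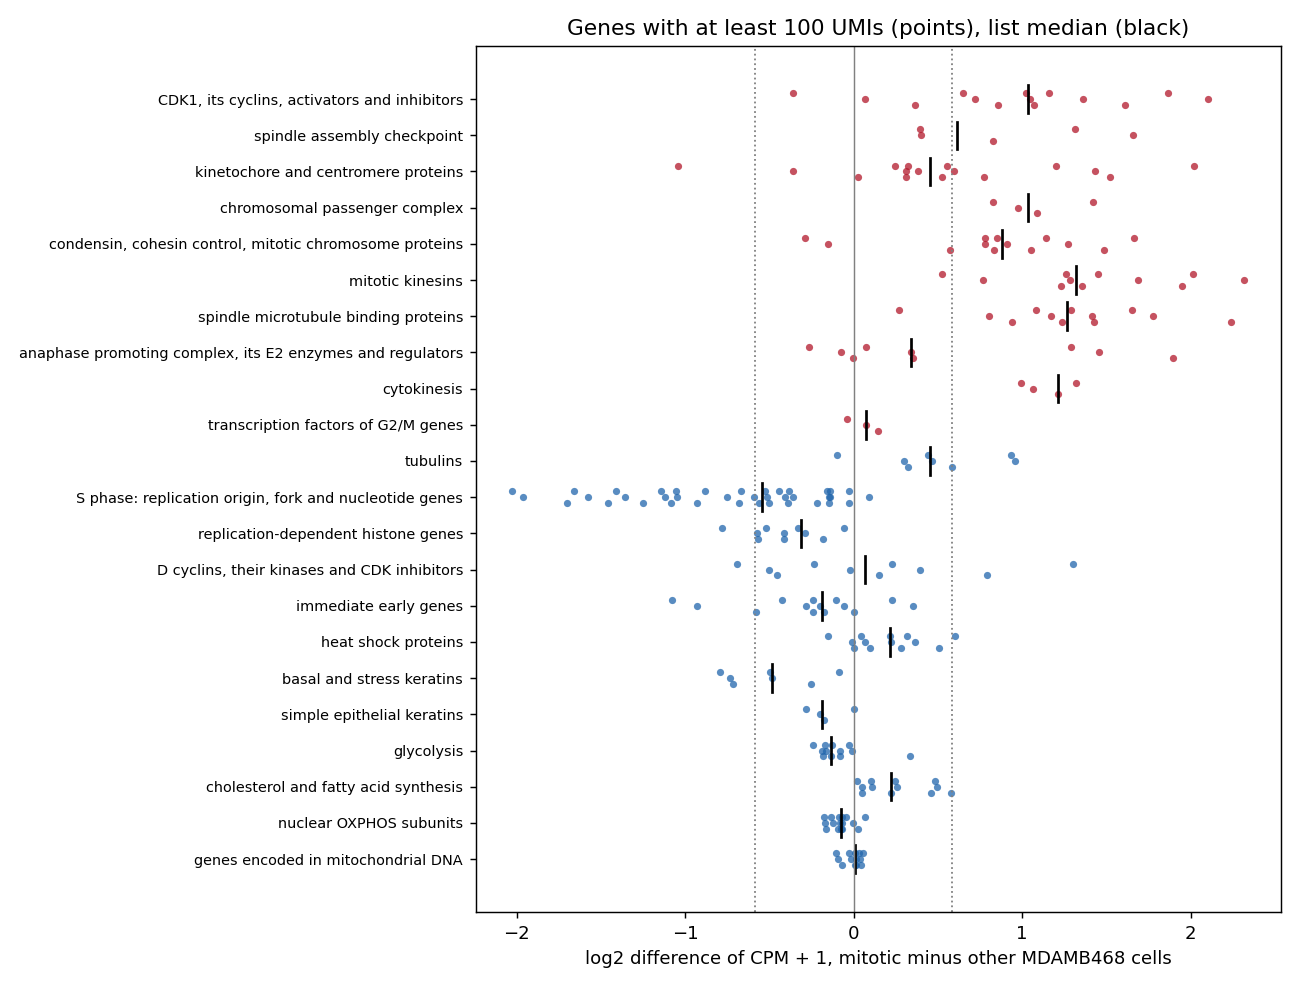
Points are genes with at least 100 UMIs, placed by their log2 difference of CPM + 1 between mitotic and other MDAMB468 cells; red for the G2 and M lists and blue for other lists, black bars for the median of each whole list, dotted lines at 1.5-fold. Kinesins and spindle proteins lie farthest right, at medians of 1.32 and 1.26, replication genes lie left, at -0.54, and genes encoded in mitochondrial DNA sit at 0.01.

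Outside the lists, the largest difference under the naming rule, which asks for at least 50 UMIs in the higher group, belonged to PIF1 (ENSG00000140451), a DNA helicase, with 86 UMIs in the mitotic cells and 12 in the others, 47.7 against 3.58 CPM and 13.3-fold (interval 7.25 to 26.8). It fell short of the 100 UMIs of the genes tested. Its UMIs came from 34 mitotic cells and 7 others, and no cell held over 11.6% of those in the mitotic group. PSRC1, a spindle protein, and DEPDC1 followed with 1.92 and 1.86. ARL6IP1, a protein that shapes the endoplasmic reticulum, was 3.15-fold higher (interval 2.86 to 3.46), with 0, 726 and 2283 CPM against 0, 151 and 934. HMGB2, a chromatin protein, was 0.79 higher with a UMI in all 62 mitotic cells. Of the tubulins, 3 of 8 were higher: TUBA1C (0.96), TUBB4B (0.93) and TUBB2A (0.59). TUBA1B (0.44) and TUBB (0.30), which carried more UMIs, were not past 1.5-fold. With TMM factors 2 tubulins were past it.

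Genes of DNA replication were lower. Of 38 genes with enough UMIs, 20 were at least 1.5-fold lower and 0 higher, with a median of -0.54 over 44, and the summed level was 2485 against 3943 CPM, a ratio of 0.630 (interval 0.609 to 0.652). With the selection made anew without barcodes shared with CAL51 the ratio was 0.542 and 23 genes were lower. Per cell, the sum was 1052, 1939 and 5030 CPM in the lowest, median and highest mitotic cell and 322, 4332 and 8208 CPM in the others. The mitotic cells lay at the low side, 59 of 62 below the median of the others, but the lowest values of all were among the other cells. Cyclin E1 (CCNE1), which drives entry into S phase, had the largest negative difference under the naming rule, 17 UMIs against 139, or 9.42 against 41.4 CPM, 4.40-fold lower (interval 2.65 to 7.76). It was found in 10 mitotic cells and 67 others. Cyclin E2 (CCNE2) was 2.84-fold lower. The helicase subunit MCM6 had 0, 22.2 and 235 CPM in mitotic cells and 0, 163 and 816 CPM in the others, 3.29-fold lower (interval 2.64 to 4.14), with a UMI in 9 mitotic cells (14.5%) and 81 others (55.5%) at equal depth. MCM2 (-1.58), MCM5 (-1.41), MCM4 (-1.25) and MCM3 (-1.14) followed, while MCM7 was -0.67. UNG was 4.15-fold and DTL 3.31-fold lower. The sliding clamp PCNA, at 0, 151 and 981 CPM against 0, 440 and 1187, was 2.07-fold lower (interval 1.85 to 2.32).

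Some replication genes, picked out after their values were seen, differed little. Thymidylate synthase (TYMS) differed by -0.15, the ribonucleotide reductase subunits RRM1 and RRM2 by -0.14 and -0.38 and thymidine kinase (TK1) by -0.22. DNA ligase 1 (LIG1), at 0.09, was the 1 gene of the 38 on the higher side. Histone genes that are made only with DNA were lower in sum, with a ratio of 0.790 (interval 0.763 to 0.819), and 1 of 10, H2BC5, passed 1.5-fold. This count depended on the setting: 8 of 10 passed for the top 20% by score, 6 with at least 10000 UMIs per cell, 6 with PLK1, CENPE, AURKA and CCNB1 alone as the score, 4 with TMM factors, 0 with a pseudocount of 10 CPM and 0 of 6 with the selection made anew without shared barcodes. The median of the list ran from -0.58 for the top 20% to 0.05 for the top 40%. In the shallower barcodes, those under 17726.5 UMIs, H2BC5 was on the higher side. H4C3, the most abundant histone mRNA here, ran from 0 over 713 to 8295 CPM in mitotic cells and from 0 over 1309 to 9594 CPM in the others, a spread wider than its 1.22-fold difference. Since these mRNAs mostly lack a poly(A) tail, poly(A) capture sees only part of them.

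Along the ranked 208 cells, split into 10 groups of 20 or 21 by the score, the G2 and M genes and the replication genes followed different courses. The median G2 and M level went from 18795 CPM in group 1, the highest, over 18547, 15043, 11921, 10854, 9840, 8900 and 6196 to 3578 and 3320 CPM in the lowest. Replication genes had 1668 CPM in group 1, stood between 4804 and 5535 CPM in groups 5 to 8, and were 2405 and 2252 CPM in groups 9 and 10. Genes that act early in S phase (CCNE1, CCNE2, MCM2, MCM5, MCM6, CDC6, CDT1 and UNG together) had 109 CPM in group 1 and a maximum of 675 CPM in group 8. The cells outside the mitotic group were thus not of 1 kind, and the differences above are against a mixture that held cells rich in replication mRNAs and cells low in both sets. Mitotic cells filled groups 1 and 2 and 20 of 21 places in group 3. Median depth was 8960 UMIs in group 10, against 14401 to 23457 in the rest, and its part in those low values was not tested.

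**Figure D4:**
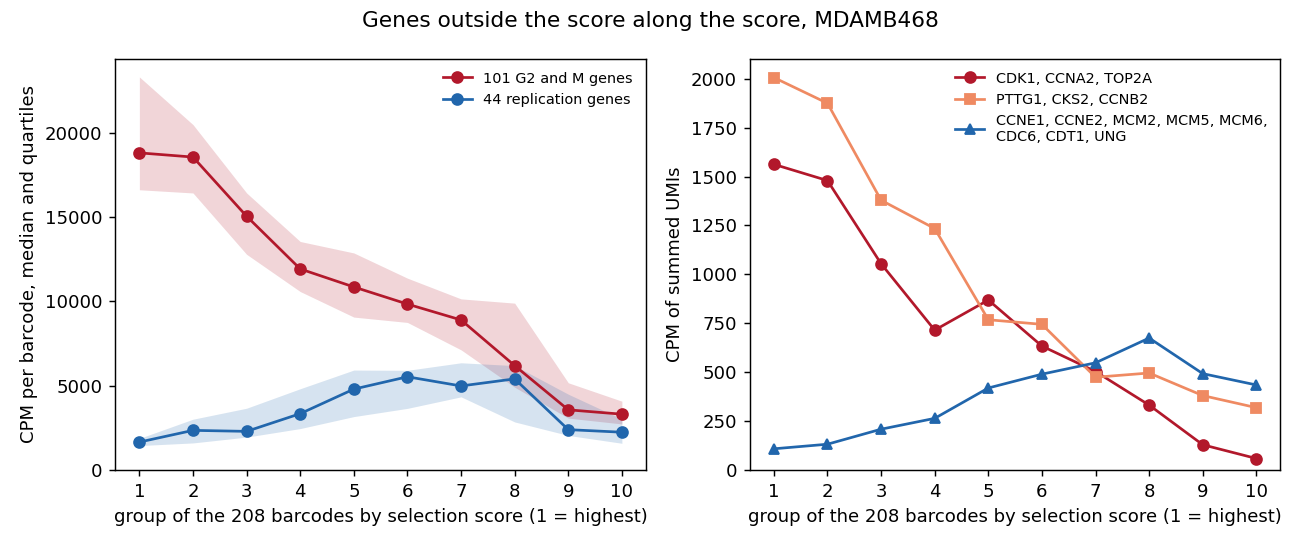
The 208 barcodes are ranked by the selection score and split into 10 groups (1 is the highest, 20 or 21 barcodes each); the left panel gives the median CPM per barcode with quartiles for 101 G2 and M genes and 44 replication genes, the right panel the CPM of 3 small gene groups from summed UMIs. G2 and M genes go from 18795 to 3320 CPM from left to right, while replication genes are highest at 5535 CPM in group 6.

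The mitotic cells also varied among themselves. Across the 62, the G2 and M level and the replication level showed almost no relation (Pearson r = -0.07, Spearman rho = -0.13), whereas across the 146 others they went together (r = 0.50, rho = 0.49). The levels of CDK1 regulators and of kinesins were correlated across the mitotic cells (r = 0.46, rho = 0.52) and more so across the others (r = 0.75, rho = 0.81), a wider range of cells. These correlations are over cells of 1 library that share its depth range. Depth itself had r = -0.08 with the G2 and M level in the mitotic cells and r = 0.19 (rho = 0.20) in the others. Its part in the correlations was not tested. At 5000 UMIs per cell, the variance over the mean (Fano factor, 1 for counting noise alone) was 0.96 for CCNB2 and 1.08 for BIRC5 within the mitotic cells, near counting noise. Their means were only 0.726 and 2 UMIs per cell, where other variation is hard to see. It was 2.23 for CDK1, 2.12 for UBE2C, 2.08 for PTTG1, 1.98 for ARL6IP1 and 1.73 for TOP2A. Larger values came from genes outside the mitotic programme, 11.8 for H4C3, 7.99 for the nuclear RNA MALAT1 and 5.13 for S100A8, a calcium-binding alarmin. The mean at that depth was 2.21 UMIs per mitotic cell for CDK1, 0.839 for S100A8 and 41.9 for MALAT1. Since the factor also depends on the mean, these values do not rank genes by relative variation.

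Gene groups of metabolism differed little. The 7 MDAMB468-line genes, near absent from CAL51, had a summed ratio of 0.871 (interval 0.841 to 0.902). Of these, 2 lay above 0 and 0 were past 1.5-fold. EGFR, the receptor amplified in this line, had 450 CPM in the mitotic cells and 461 in the others (ratio 0.978, interval 0.897 to 1.07). Glycolysis, nuclear OXPHOS and mitochondrially encoded genes had 0 genes past 1.5-fold either way, with medians of -0.14, -0.08 and 0.01, and 82 ribosomal protein genes likewise had 0, with a median of -0.12. Mitochondrial UMIs made up 3.44% of the median mitotic cell and 3.51% of the median other cell. At 5000 UMIs the median mitotic cell showed 2266 detected genes and the median other cell 2207, and unthinned 4952 and 4602. Cholesterol and fatty acid synthesis genes lay above 0 in 12 of 13 cases with a median of 0.22 and none past 1.5-fold, the highest being HMGCS1 at 0.58. Other lists were as one-sided the other way, with 1 of 13 glycolysis, 2 of 16 OXPHOS and 3 of 84 ribosomal protein genes above 0. Across settings the median of the cholesterol and fatty acid list ran from 0.03 below 17726.5 UMIs to 0.35 for the top 20%. MALAT1 had 2563, 7872 and 21351 CPM across mitotic cells and 789, 5407 and 17341 across the others, 0.48 higher. Its level overlapped widely between the groups, with 31 of the other cells at or above the mitotic median.

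Regulators of G1 were mixed: CDKN3, a CDK phosphatase, was 1.30 and the inhibitor p27 (CDKN1B) 0.79 higher, CDK2 was 0.69 lower on the log2 scale, and cyclin D1 (CCND1) differed by 0.39. Among immediate early genes, ATF3, a stress transcription factor, was 2.15-fold lower (interval 1.56 to 3.02) and ZFP36 was past 1.5-fold on the same side, although 32.3% of the ZFP36 UMIs of the other cells were in 1 cell. EGR1, FOS and JUN differed by 0.23, -0.06 and -0.18. HSPA1A, an inducible chaperone, was the 1 heat shock gene past 1.5-fold, at 0.60, and with TMM factors none was. Basal and stress keratins were lower, with 3 of 7 past 1.5-fold (KRT6B, KRT17 and KRT16) and a median of -0.48, and KRT5 itself had 0, 247 and 1129 CPM against 0, 349 and 1938 CPM, 1.40-fold lower (interval 1.27 to 1.54). With the selection made anew without barcodes shared with CAL51 only 1 keratin was past the threshold, and in the shallower barcodes the median of the list was 0.07. IGFBP5, a binding protein for insulin-like growth factors, was 2.84-fold lower (interval 2.20 to 3.71) with UMIs in 27 mitotic cells and 91 others. The other genes of largest negative difference were ZMYND19 (-1.96), the coagulation initiator F3 (-1.93), PIGW (-1.63), the chemokine CXCL3 (-1.61) and the helicase BRIP1 (-1.45), each with fewer than 20 UMIs in the mitotic cells. ZMYND19, F3 and PIGW fell short of the 100 UMIs of the genes tested. Without thinning, CXCL3 had a UMI in nearly the same share of both groups, 7 mitotic cells (11.3%) and 17 others (11.6%). At 5000 UMIs per cell it was seen in 2 mitotic cells (3.23%) and 10 others (6.85%).

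Markers of other cell types were nearly empty. The CAL51-line genes gave 7 UMIs in the mitotic cells and 10 in the others, 3.88 and 2.98 CPM for 8 genes together, with APOC1, BEX3 and GPC3 at 0 in both. Leukocyte markers gave 3 and 4 UMIs, with PTPRC, CD3D and LYZ at 0, and fibroblast markers 9 and 12, of which COL1A1 made up 9 and 11 while COL1A2 and PDGFRB were at 0. Endothelial markers gave 25 and 71 UMIs, of which KDR made up 25 and 66, and CDH5 and VWF were at 0. The MDAMB468-line genes summed to 1169 to 4490 CPM per mitotic cell and 1096 to 7888 CPM per other cell, so every cell carried them.

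The same rule was applied to CAL51 without the barcodes it shares with MDAMB468, which gave 321 cells and 748 others with median depths of 10782 and 10300 UMIs. There, 195 of 9633 genes (2.02%) were at least 1.5-fold higher and 143 (1.48%) lower. The 101 G2 and M genes had a ratio of 1.69 in CAL51 against 1.91 in MDAMB468, and 57 of 100 were higher against 62 of 91. The MDAMB468 values set beside CAL51 here keep the shared barcodes, so the cell sets are unlike. With the MDAMB468 selection made anew without shared barcodes, the ratio was 2.10 and 54 genes were higher. Across the 91 G2 and M genes tested in both lines, the log2 differences had a Pearson r of 0.89, and across all 5910 genes tested in both, 0.53. Of the 268 genes higher in MDAMB468 among these, 103 were also higher in CAL51, 38.4% of the MDAMB468 list and 83.1% of the 124 in CAL51. For the lower genes the overlap was 21, or 16.2% of 130 and 35.0% of 60, and no gene was past 1.5-fold in opposite directions. Of all genes tested in each line, 4.41% were higher in MDAMB468 and 2.02% in CAL51, and 2.57% and 1.48% were lower. The calls depend on counts: with at least 500 UMIs per gene, 46 were higher and 17 lower in MDAMB468, among 1768 genes. Genes called in only 1 line are therefore not read as particular to that line. CDK1 differed by 1.05 in MDAMB468 and 0.52 in CAL51, CKS2 by 1.36 and 0.71, and PIF1 by 3.41 and 2.76. MCM2 and CCNE1 were lower by more in MDAMB468, -1.58 and -2.03, than in CAL51, -0.54 and -1.02, while the linker histone H1-3 had -0.33 in MDAMB468 and -1.68 in CAL51. GADD45A, a stress gene, and the tubulin TUBA1A were on opposite sides, 0.66 and 0.47 in MDAMB468 and -0.56 and -0.58 in CAL51. With 1 library per line none of these differences between lines was tested.

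**Figure D5:**
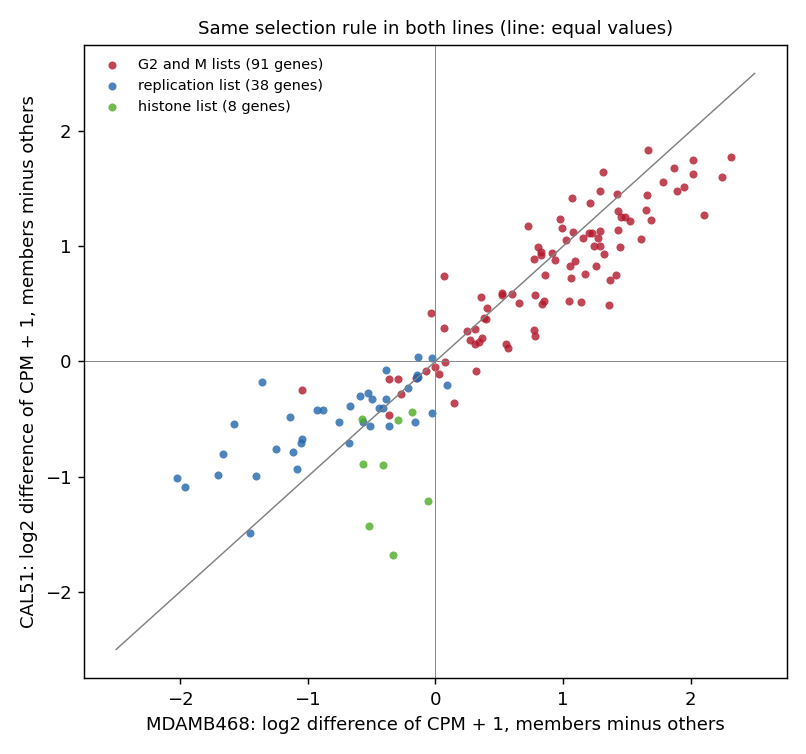
Each point is a gene with at least 100 UMIs in both lines; the axes give its log2 difference of CPM + 1 between selected and other cells in MDAMB468 (horizontal) and CAL51 (vertical), and the line marks equal values. Barcodes shared by the lines are kept in MDAMB468 and left out in CAL51. The 91 G2 and M genes have a Pearson r of 0.89, and the medians over all 101 listed are 0.94 in MDAMB468 and 0.75 in CAL51, the replication genes lie below 0 on both axes with few exceptions, and several histone genes lie lower in CAL51.

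The barcodes with the same sequence in both libraries were also read in their CAL51-labelled form. Whether the CAL51-labelled barcodes hold copies of the same molecules was not tested, so they are no independent measure of the mitotic cells. The 13 CAL51-labelled barcodes with the sequence of a mitotic cell held 58078 UMIs and 14859 CPM of G2 and M genes, and the 18 with the sequence of another MDAMB468 cell held 77162 UMIs and 10990 CPM. Their ratio was 1.35 (interval 1.23 to 1.49), in the direction of the ratio of 1.64 (interval 1.60 to 1.68) between the MDAMB468 barcodes of the same sequences. For replication genes the ratios were 0.894 (interval 0.738 to 1.08) and 0.771. The CAL51-labelled barcodes were in no comparison above.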

How the data were processed

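The authors deposited 1 matrix of raw UMI counts per gene and barcode for both lines, made with STARsolo per the submitters' processing notes. The version, genome build, annotation and barcode filter of that step were not given in the sources used here. Barcode names start with the line, which assigned each barcode to its library. Genes were deposited as Ensembl identifiers, of which 30730 of 30796 matched a symbol in a table of gene names; gene types came from GENCODE release 29. Whether counting used the strand is not given, so antisense, overlapping and near-identical genes are uncertain.

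Counts were summed over the 62 mitotic and the 146 other cells and scaled to CPM. Differences are of log2(CPM + 1), and a gene counts as higher or lower past 1.5-fold with at least 100 UMIs over both groups. Cells are not replicates and each line is 1 library, so no p-value was computed. Intervals are exact (Poisson, conditional binomial for ratios, Clopper-Pearson for shares) at 95%. Fano factors, and detected genes unless called unthinned, came from cells thinned to 5000 UMIs. Numbers and shares of cells with a UMI came from thinned cells only where 5000 UMIs or equal depth is named. Elsewhere they are unthinned and not matched for depth. The score genes were left out of all results. Doublets were sought with scrublet in scanpy 1.11.5 at an expected rate of 0.05 on the MDAMB468 library alone and kept. Promoter sequences are from RefSeq on GRCh38.p14. Other tools were Python 3.11.15 with pandas 2.3.3, scipy 1.17.1, matplotlib 3.10.9 and numpy 2.4.6, and edgeR 4.0.16 in R 4.3.3 for TMM factors only, and the calculation of folds and intervals was tested on simulated data.

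Named genes were 27 genes fixed whatever their value, the 12 highest and 12 lowest differences among genes with at least 50 UMIs in the higher group, at most 20% of them in 1 cell and 1 sign under every alternative of the first set, and the highest and lowest member of each list; other genes were picked out after their values were seen. The members, gene lists and tests were chosen with earlier results of these data known. Alternatives to the depth minimum, the score, the share taken, the scaling, the pseudocount and the gene filter were tried, and the closing section gives their effect.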

Additional observations from a re-analysis of the deposited data

Results flagged for a closer look

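MDAMB468-line genes were found in data that no comparison used. The 31 CAL51-labelled barcodes whose sequence also occurs in MDAMB468, which were in neither group, held 233 UMIs of 7 genes near absent from CAL51 (KRT7, KRT5, AZGP1, AARD, FXYD3, PI3 and IL22RA2), or 1723 CPM. The other 1346 CAL51 barcodes held 2 such UMIs, or 0.123 CPM. Among the 31, those with the sequence of a mitotic cell had 1498 CPM and those with the sequence of another cell 1892 CPM, against 2501 and 2912 CPM in the MDAMB468 barcodes of the same sequences. Whether these barcodes hold copies of molecules from the MDAMB468 library was not tested.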

How the results depend on the processing

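The lists and alternatives were set with earlier results known, and 1 alternative, leaving out the cell richest in interferon UMIs, was added after these values were seen. The ratio of summed G2 and M genes, 1.91, was 1.84 with at least 10000 UMIs per cell, 1.95 and 1.94 for the top 20% and 40%, 2.10 with the selection made anew without shared barcodes, 1.86 with a thinned score, 1.84 with PLK1, CENPE, AURKA and CCNB1 alone as the score, 2.10 as a mean of single cells, 2.24 and 1.83 in the cells below and above 17726.5 UMIs, 2.05 without the 5 deepest cells of each group, 1.87 with mitochondrial and ribosomal protein genes out of the total and 1.81 with TMM factors. The ratio for replication genes, 0.630, was 0.662 for the top 40%, 0.542 without shared barcodes, 0.659 with a thinned score, 0.570 as a mean of single cells, 0.497 and 0.661 below and above 17726.5 UMIs, 0.557 without the 5 deepest cells and 0.599 with TMM factors. Higher G2 and M genes numbered 62, but 27 below 17726.5 UMIs and 28 with at least 500 UMIs per gene, and lower replication genes 20, but 9 and 8, with fewer genes tested in both settings. All higher genes numbered 278, and 426 by means of single cells, 99 below 17726.5 UMIs, 175 with a pseudocount of 10 CPM, 4165 with no minimum of UMIs per gene and 46 with at least 500. Lower genes numbered 162, and 244 for the top 20%, then 284, 92, 76, 2752 and 17 under the same settings. With TMM factors 206 were higher and 219 lower (48.5% higher, against 63.2%). Of 97 named genes, 73 kept 1 sign under all 19 of the first set of alternatives, as did 48 of the 50 past 1.5-fold. These counts are partly fixed by the choice of genes, since the 12 highest and 12 lowest were named only if they kept 1 sign. The alternatives of pseudocount and of minimum UMIs per gene cannot change a sign. H2BC5 went to 0.15 below 17726.5 UMIs, and IFIT2 from -4.95 to 0.72 without shared barcodes and 1.64 below 17726.5 UMIs; the cause for H2BC5 was not tested. No paired analysis was possible because each line is 1 library. Depth limits rare genes: CDC25C rests on 46 UMIs in all.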

Other observations

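Most interferon UMIs of the MDAMB468 cells were in 1 cell. This cell, among the others, held 68673 UMIs and a score of 743 CPM, and its sequence also occurred in the CAL51 library. It carried 210 of the 219 UMIs of IFNB1 found in the 208 cells, 299 of 311 of IFNL1, 190 of 196 of IFNL2 and 190 of 194 of IFNL3, genes for secreted interferons, together 1.29% of its UMIs. The interferon-induced genes IFIT2 (488 of 508), OASL (142 of 152), IFIT1 (225 of 278) and IFIT3 (158 of 198) and the chemokines CCL5 (97 of 103) and CXCL10 (97 of 131) were concentrated in it too. Its G2 and M genes stood at 11416 CPM and its replication genes at 4485 CPM, within the range of the other cells. Without it IFIT2 had 3.95 CPM in the others and 3.88 CPM in the mitotic cells, IFIT1 had 10.6 and 9.97 CPM, IFIT3 9.43 and 4.99 CPM, and CXCL10 7.604 and 4.99 CPM. In the list of interferon and antigen presentation genes 0 of 8 tested were then past 1.5-fold, against 5 of 11 lower with it, and 3 genes had dropped under the minimum of UMIs. PPP1R15A, a stress phosphatase subunit, had 297 of its 543 UMIs there, and its level was 48.1 CPM in the remaining others and 48.8 CPM in the mitotic cells.

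Single cells also carried some values on the mitotic side. INHBA, a subunit of activin, had 108 UMIs in the mitotic cells, of which 51.9% were in 1 cell. The antimicrobial gene S100A7 was lower by 1.36 on the log2 scale in the mitotic cells, with 103 of the 206 UMIs of the others in 1 cell. S100A8 reached 2677 CPM in 1 mitotic cell while the median mitotic cell had 13.9 CPM.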
